A study of Caenorhabditis elegans with 6 samples.

Results

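Protein-coding genes with few or no 22G-RNAs in wild-type worms that carried them in every library of a *lotr-1* deletion mutant were taken from the 22G-RNA counts of 6 small RNA libraries. A gene was selected if it had at most 10 raw counts in each of the 3 wild-type libraries and at least 50 in each of the 3 *lotr-1(sam117)* libraries, with the protein-coding biotype taken from the Ensembl annotation of WBcel235. This gave 20 of 19725 protein-coding genes. The genes were therefore chosen by the difference between the genotypes, and their own counts are described here without a test. One of them, *fezf-1*, is included in the totals but not described further, and *fmil-1*, with 11 to 15 counts in wild-type, lay outside the limit.

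In the germline of *C. elegans*, 22G-RNAs are made by RNA-dependent RNA polymerases on target transcripts, to which they are antisense. They are bound by Argonautes of the WAGO group, which silence their targets, or by CSR-1, which is associated with expressed germline genes. Production of WAGO-class 22G-RNAs takes place in germ granules, and LOTR-1 is a LOTUS and Tudor domain protein that localizes to the Z-granule part of them together with the helicase ZNFX-1.

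All libraries came from whole gravid adults, grown from synchronized L1 larvae on bacterial plates for 65 hours, and RNA was treated with RppH so that triphosphorylated small RNAs could be ligated. Wild-type was the N2 strain, and the mutant carried *lotr-1(sam117)* on chromosome I, a deletion of the whole *lotr-1* coding sequence, in animals with no other allele named in the labels. Each genotype had 3 libraries, and the labels do not say whether these came from separate cultures, so p-values measure only the spread between these libraries, which may be technical. A count is the number of reads of 22 bases that started with G and were antisense to the exons of a gene, which is not a measure of its mRNA.

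The 6 libraries held 3150716 to 3829101 counts each, and a gene at 3 counts in such a library would take up to 9.52e-05% of them. Intervals and floors given here cover counting error only. *lotr-1* itself had 477 to 563 counts in wild-type and 40 to 60 in the mutant libraries, lower in each mutant library than in any wild-type library. Of the germline-expressed genes listed for comparison, 0 of 15 stayed at or under 10 counts in every wild-type library, against 8 of 15 somatic genes, and the median level of these lists in wild-type was 144 and 4.35 normalized counts. The summed counts of the germline list were 4131 to 4836 in wild-type and 2524 to 2742 in the mutant libraries. For the somatic list these sums were 308 to 403 and 169 to 224. In DESeq2, 0 of 15 tested germline genes were up-regulated and 1 down-regulated (*glp-1*, log2 fold change -1.30, called with a library left out only when this was mutant replicate 3), and of 9 tested somatic genes 0 were up-regulated and 2 down-regulated (*unc-54* and *rab-3*), with median log2 fold changes of 0.18 and -0.25 beside 0.04 over all loci. None of the selected genes was in either list. Because whole animals were used, a different number of germ cells and a different amount of 22G-RNA per germ cell cannot be told apart.

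Summed in each library, the 20 genes had 97, 90 and 114 counts in wild-type replicates 1 to 3 and 4272, 4797 and 4297 counts in *lotr-1(sam117)* replicates 1 to 3. Their share of all 22G-RNA counts was 0.00289% ± 0.000250 in wild-type and 0.126% ± 0.000492 in the mutant (SD, n = 3). *fezf-1* alone held 1589 to 1787 of the mutant counts, and without it the share was 0.0792% ± 0.000562 in the mutant (SD, n = 3). In DESeq2, tested against a 2-fold change at 10% FDR, 20 of 20 genes were called up-regulated, beside 8.15% of all 11682 tested loci and 7.25% of 10724 tested protein-coding genes. Since the limits of the selection lie far beyond a 2-fold change, this count follows from how the genes were chosen. Genes that met the opposite limits, at least 50 counts in every wild-type library and at most 10 in every mutant library, numbered 118. These limits are in raw counts, while mean DESeq2 size factors were 1.32 in wild-type and 0.776 in the mutant. The number is therefore not compared with 20.

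**Figure D1:**
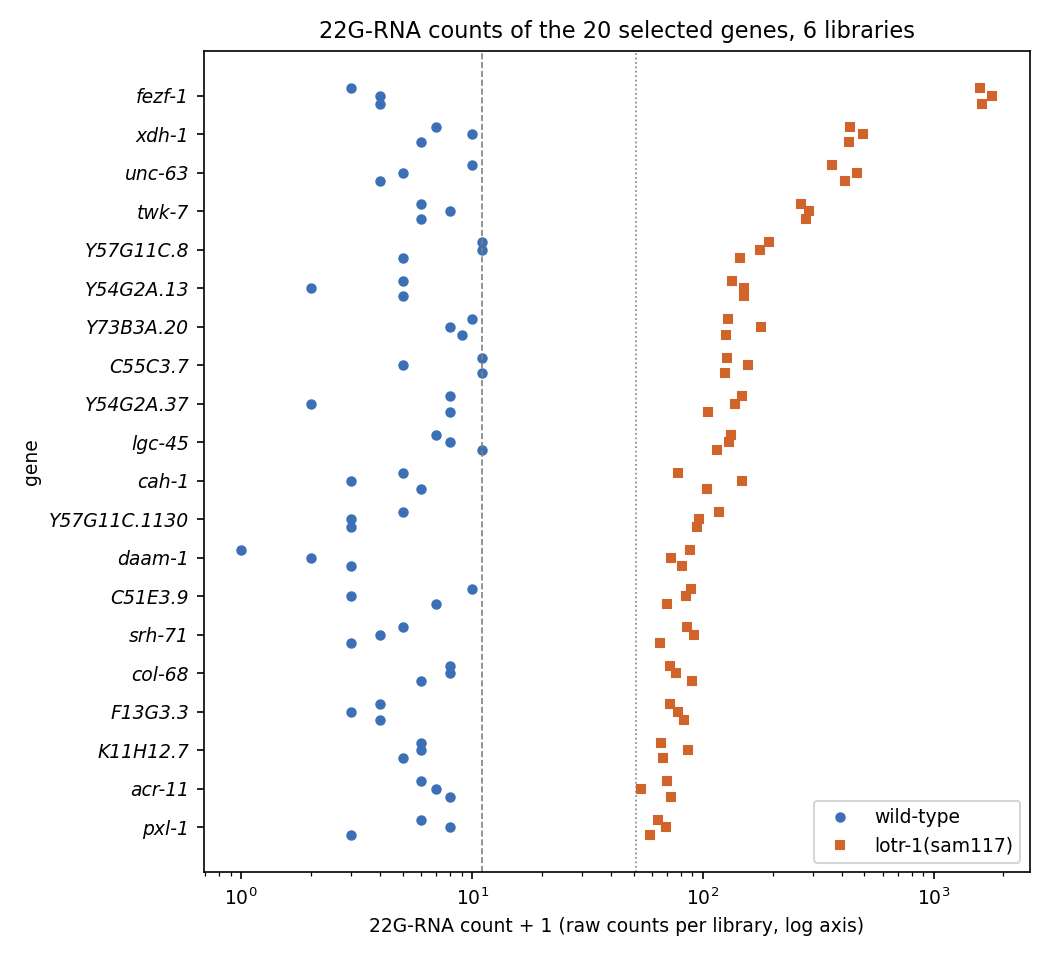
Raw 22G-RNA counts plus 1 (log axis) of the 20 selected genes, with 3 wild-type libraries (circles) and 3 *lotr-1(sam117)* libraries (squares) per gene, in the order of mean normalized counts in the mutant. Dashed and dotted lines mark the limits of 10 and 50 counts, and the mutant counts extend from 53 at *acr-11* to 1787 at *fezf-1*.

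The named genes fall into groups by function. Of the 20 genes, 5 encode channel subunits or predicted receptors, namely *unc-63*, *acr-11*, *lgc-45*, *twk-7* and *srh-71*. A further 3 encode structural or cytoskeletal proteins (*daam-1*, *pxl-1*, *col-68*), 2 encode enzymes (*xdh-1*, *cah-1*), and *fezf-1* encodes a zinc finger transcription factor. The other 9 carry only a sequence name. Some of these families are large: 98 genes were listed for the Cys-loop channel superfamily of *unc-63*, *acr-11* and *lgc-45*, 44 for *twk* and 220 for *srh*. The numbers per group are therefore descriptions only.

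Among the channel and receptor genes, *unc-63* had the largest counts. It encodes an alpha subunit of the levamisole-sensitive nicotinic acetylcholine receptor of body wall muscle and lies on chromosome I (WBGene00006797, 5141673 to 5149226, plus strand). Its counts were 3, 4 and 9 in N2 but 409, 465 and 362 in *lotr-1(sam117)* libraries. The log2 fold change was 7.04 (SE 0.378), and every mutant library was above every wild-type library, as the selection requires. *twk-7*, a potassium channel gene of the TWiK family on chromosome III (WBGene00006662, 8634067 to 8643739, minus strand), went from 5, 7 and 5 counts to 279, 287 and 265 (log2 fold change 6.38, SE 0.374). The mutant libraries of *twk-7* differed little among themselves, at 358 ± 18.8 normalized counts (SD, n = 3).

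*lgc-45* encodes a predicted ligand-gated ion channel subunit of the Cys-loop superfamily and lies on chromosome II (WBGene00021146, 3557472 to 3567579, plus strand). It had 10, 7 and 6 counts in N2, at the limit of the selection in replicate 1, but 114, 128 and 131 in *lotr-1(sam117)* libraries (log2 fold change 4.79, SE 0.357). *acr-11*, a nicotinic acetylcholine receptor subunit gene on chromosome I (WBGene00000050, 6621624 to 6624918, minus strand), went from 7, 6 and 5 counts to 72, 53 and 69 (log2 fold change 4.21, SE 0.435). It had the smallest difference of the 20 genes and the mutant count nearest to the limit. *srh-71*, a gene of a large family of predicted chemoreceptors on chromosome II (WBGene00005292, 3123506 to 3124899, plus strand), went from 2, 3 and 4 counts to 64, 90 and 84 (log2 fold change 5.49, SE 0.539).

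The structural genes had low counts. *daam-1*, which encodes a formin, an actin-nucleating protein, lies on chromosome V (WBGene00018976, 64530 to 83832, minus strand). It was the gene with the fewest wild-type counts, 2, 1 and 0, and had 80, 72 and 87 in *lotr-1(sam117)*. On 3 wild-type counts in all, the ratio of normalized counts was 136 with a 95% counting interval of 45.9 to 664. With total-count scaling the ratio was 78.6, with an interval of 26.6 to 384. *col-68*, a cuticle collagen gene on chromosome II (WBGene00000644, 104534 to 105829, plus strand), went from 5, 7 and 7 counts to 89, 75 and 71. Collagen genes form a large family, and a read with several equally good positions was assigned to 1 of them at random, so the counts of such genes are less certain. *pxl-1*, which encodes paxillin, an adaptor of muscle attachment complexes, lies on chromosome III (WBGene00016197, 5889721 to 5896013, minus strand) and had 2, 7 and 5 counts against 58, 68 and 63.

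Of the enzymes, *xdh-1* encodes xanthine dehydrogenase of purine breakdown and lies on chromosome IV (WBGene00010083, 14401114 to 14412894, minus strand). It had 5, 9 and 6 counts in N2 but 426, 491 and 434 in *lotr-1(sam117)* libraries (log2 fold change 6.85, SE 0.339). After division by size factors its 3 mutant libraries were the most alike of all 20 genes, with a coefficient of variation of 0.729%. The chi-square of its mutant counts was 0.0248 per degree of freedom, less spread than counting error alone would usually give. This closeness is therefore not read as a property of the gene. *cah-1*, a carbonic anhydrase family gene on chromosome III (WBGene00000279, 5083206 to 5085629, minus strand), showed the widest spread, with 103, 146 and 77 counts in the mutant and 5, 2 and 4 in wild-type. Its coefficient of variation was 25.8%, and the chi-square of its mutant counts was 7.24 per degree of freedom, the highest of the 20 genes. The lowest mutant library of *cah-1* had 77 counts, above its highest wild-type count of 5, as the limits of the selection require.

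The 9 genes with a sequence name only are given without a function, since the annotation used names none. Of these, 6 lie on chromosome IV. Y54G2A.13 (WBGene00021878, 2814568 to 2819733, minus strand) had 4, 1 and 4 counts in N2 but 150, 150 and 132 in *lotr-1(sam117)* libraries (log2 fold change 6.36, SE 0.514). Y54G2A.37 (WBGene00023484, 2820708 to 2823542, plus strand) went from 7, 1 and 7 counts to 104, 137 and 147. These neighbours lie 974 bases apart on opposite strands, and counting used strand, so no read position counts for both. Whether reads with several equally good positions were placed between them could not be checked.

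Y57G11C.8 (WBGene00013306, 14781837 to 14782895, plus strand) had the highest counts of the genes without a name, with 4, 10 and 10 in N2 but 144, 175 and 193 in *lotr-1(sam117)* libraries. The gene WBGene00194649 (14782511 to 14783355, plus strand) went from 2, 2 and 4 counts to 93, 95 and 116. Both are on the same strand and share 357 exonic bases, so their reads may be shared, and the 20 genes stand for 19 separate loci. The other genes of chromosome IV were C55C3.7 (WBGene00043065, 5678829 to 5682647, minus strand), with 10, 4 and 10 counts against 124, 156 and 126, and K11H12.7 (WBGene00019663, 665525 to 666917, plus strand), with 4, 5 and 5 against 66, 85 and 65.

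Of the 3 genes elsewhere, Y73B3A.20 (WBGene00022221, X, 47690 to 58063, plus strand) had 8, 7 and 9 counts in N2 but 125, 177 and 127 in *lotr-1(sam117)* libraries. C51E3.9 (WBGene00008254, V, 10145953 to 10148977, plus strand) went from 6, 2 and 9 counts to 69, 83 and 88. It shares 300 exonic bases on the same strand with *srsx-26*, which had a single count over all 6 libraries. F13G3.3 (WBGene00008763, I, 7296918 to 7299983, minus strand) went from 3, 2 and 3 counts to 82, 77 and 71. In all of these genes the lowest mutant library was several times the highest wild-type library, as the limits of the selection require.

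Over the 20 genes the log2 fold change had a median of 5.48 and a range from 4.21 at *acr-11* to 10.06 at *fezf-1*. Mutant libraries differed from each other by a median coefficient of variation of 11.3%. These fold changes use DESeq2 size factors, which were 1.18 to 1.46 in wild-type and 0.737 to 0.839 in the mutant although total counts were alike. Scaling by total counts moved the median log2 fold change of 8789 loci from -0.05 to -0.84, and the range of the 20 genes to 3.42 to 9.27. Per kilobase of exonic sequence, the mutant level was highest after *fezf-1* at *unc-63*, with 326 normalized counts, and lowest at *daam-1*, with 24.7. The median over the 20 genes was 129 normalized counts per kilobase in the mutant, beside 30.3 over all tested protein-coding genes and 273 over the up-regulated ones. The selection required at least 50 counts in every mutant library and at most 10 in every wild-type library. Nothing is therefore read from either of these differences. In wild-type the median level was 3.87 normalized counts for the selected genes and 60.4 for the up-regulated ones.

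The limits did not fall in a gap between genes. Of 19725 protein-coding genes, 11080 met the wild-type limit and 3901 the mutant limit. Just above the wild-type limit lay *grh-1*, which encodes a Grainyhead transcription factor, with 11, 11 and 8 counts in N2 but 1700, 1775 and 1618 in *lotr-1(sam117)* libraries. T23F4.2 (11, 5 and 11 against 234, 232 and 215) and Y82E9BL.6 (7, 11 and 4 against 89, 98 and 102) missed the same limit by 1 count. Their mutant counts are within the range of the selected genes, and those of *grh-1* are near the counts of *fezf-1*.

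On the mutant side, F28C10.3 had 53, 49 and 48 counts and Y37A1B.4 had 50, 67 and 48, with 5 to 10 counts in the wild-type libraries. *pbo-5*, a subunit of a proton-gated channel, had no counts in wild-type but 45, 59 and 51 in the mutant libraries. With DESeq2 size factors this is at least 29.1-fold higher when each wild-type library is set at the floor of 3 counts. The bound is lower with total-count scaling. None of the 20 genes was at 0 in every wild-type library. Of 4669 protein-coding genes at 0 in every wild-type library, 79 had at least 1 count in every mutant library and 3 had at least 10.

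**Figure D2:**
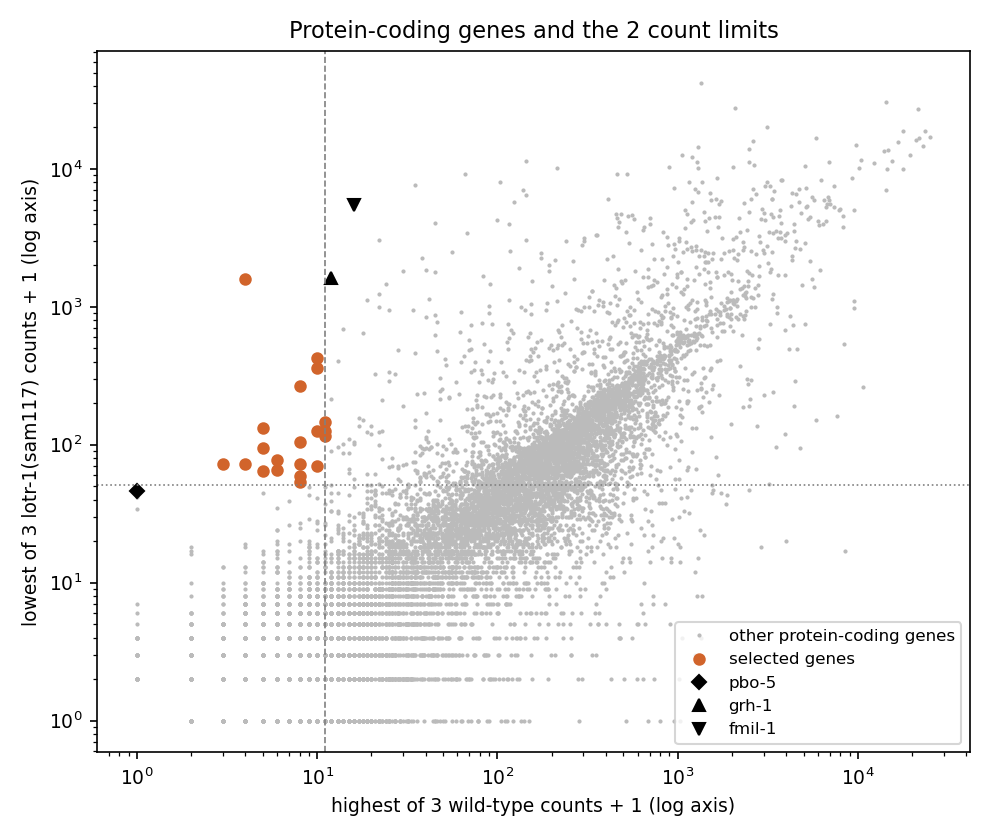
Protein-coding genes by their highest count in a wild-type library (horizontal) and their lowest count in a *lotr-1(sam117)* library (vertical), both plus 1 on log axes. The lines mark the limits of 10 and 50 counts, and the 20 selected genes occupy the corner with few wild-type and many mutant counts, with *pbo-5*, *grh-1* and *fmil-1* marked outside it.

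When the limits were applied to the libraries of only 2 replicate numbers of each genotype, 25 genes were selected each time. These always include the same 20 genes, since meeting both limits in the left-out libraries as well is the rule itself. Over the 25 genes the highest left-out wild-type count was 14, 18 and 16, and the lowest left-out mutant count was 41, 50 and 48, when replicates 1, 2 and 3 were left out. The same limits were also met by 6 pseudogenes. Of these, C25D7.2 (3, 3 and 5 counts against 742, 804 and 716), C25D7.12 (3, 2 and 6 against 153, 153 and 141) and C25D7.14 (2, 0 and 0 against 184, 219 and 201) lie close together on chromosome V (15032142 to 15038835).

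Chromosome IV held 8 of the 20 genes (40%), at 6 separate sites, while it holds 16.5% of the protein-coding genes counted and 13.0% of those called up-regulated. Chromosomes I, II and III held 3 each, chromosome V 2 and X 1. Chromosome V, with 25.1% of protein-coding genes, held 10% of the selected genes. Within 1 Mb of a chromosome end lay 4 genes (20%), against 10.2% of protein-coding genes and 16.1% of up-regulated ones. These were Y73B3A.20 (47.7 kb from the end), *daam-1* (64.5 kb), *col-68* (105 kb) and K11H12.7 (666 kb).

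Most piRNA genes of *C. elegans* lie in clusters on chromosome IV, and 3 of the selected genes contained annotated piRNA genes within their span. *xdh-1* contained 66, C55C3.7 contained 7 and Y54G2A.37 contained 1. This was 15% of the selected genes, against 4.93% of protein-coding genes and 6.34% of those at or under the wild-type limit. The windows and classes in these comparisons were chosen after the genes were known, and with 20 genes the shares are descriptions only.

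In gene structure, the selected genes had a median exonic length of 1170 bases, near the 1168 of all protein-coding genes and below the 1454 of up-regulated ones. Their median number of separate exonic blocks was 8.5, against 5 and 6, and their median span was 3.30 kb, against 2.05 and 3.27 kb. Protein-coding genes at or under the wild-type limit had medians of 1041 bases, 5 blocks and 1.76 kb. The limits were in raw counts, not per base, so these values are descriptions only. The selected genes lay on both strands, 11 on plus and 9 on minus.

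The flanking genes were not used by the selection and could be tested. Of the 36 nearest genes on either side, 21 were tested in DESeq2 against a 2-fold change, of which 3 were up-regulated (14.3%) and 1 down-regulated (4.76%). Over all annotated genes tested, 7.66% were up-regulated and 8.24% down-regulated. The median log2 fold change of the tested neighbours was -0.13, beside 0.03 over all annotated genes. With total-count scaling 2 were up-regulated and 7 down-regulated, while the calls over all loci moved from 952 and 951 to 498 and 2331. Other selected genes are not counted among these neighbours.

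T10D4.6, 322 bases from *srh-71* on the same strand, had 28, 26 and 34 counts in N2 but 149, 163 and 134 in *lotr-1(sam117)* libraries, and rose by 3.11 on the log2 scale (SE 0.227, DESeq2 adjusted p = 2.66e-19). The pseudogene Y73B3A.18, 1302 bases from Y73B3A.20 on the same strand, had 95, 74 and 105 counts against 311, 397 and 363 (log2 fold change 2.73, SE 0.147, DESeq2 adjusted p = 7.46e-31). Both were already above the wild-type limit in wild-type. The pseudogene Y57G11C.57, 570 bases from Y57G11C.8 on the opposite strand, had a log2 fold change of 1.69 (SE 0.0896), which was 0.90 and not called with total-count scaling.

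The down-regulated neighbour was F55B11.6, 3367 bases from *xdh-1* on the same strand, with 1210, 1246 and 1342 counts in N2 but 252, 361 and 272 in the mutant libraries (log2 fold change -1.34, SE 0.0941, DESeq2 adjusted p = 0.0024). *ppfr-2*, 147 bases from *acr-11* on the same strand, had 223, 266 and 323 counts against 138, 150 and 145 (log2 fold change -0.13, SE 0.143) and was not called. In both genes the raw counts of the genotypes did not overlap, so this alone does not mark a change.

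**Figure D3:**
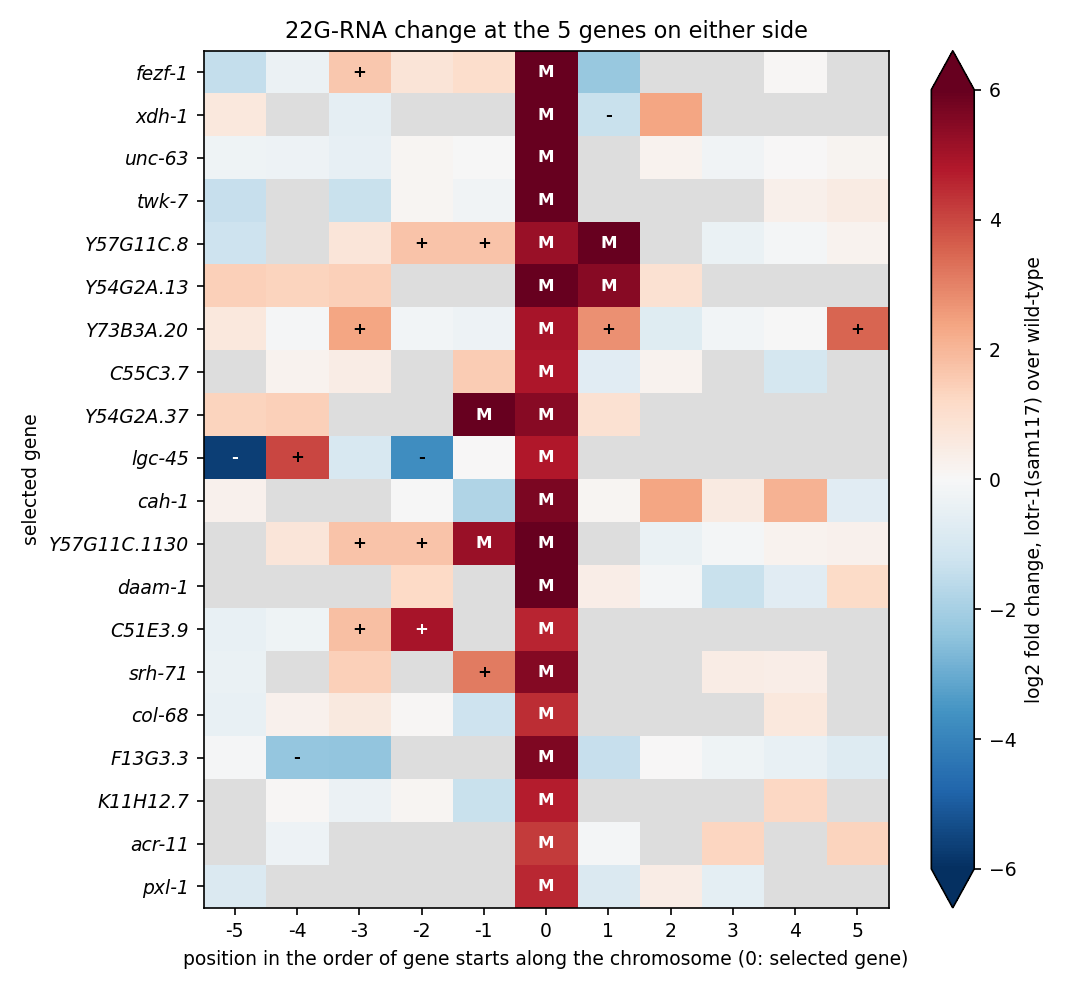
Log2 fold change of 22G-RNA counts, *lotr-1(sam117)* over wild-type (colour, saturating at the ends of the scale), for the 5 nearest genes on each side of each selected gene (horizontal, by order along the chromosome). M marks a selected gene, plus and minus signs mark genes called up- or down-regulated, and grey marks genes not tested. Of the tested flanking genes, 10 were up-regulated and 4 down-regulated.

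Among the 5 nearest genes on each side, 109 of 180 were tested, with 10 up-regulated (9.17%) and 4 down-regulated (3.67%). With total-count scaling these became 6 and 21. Calls over all loci moved the same way, from 952 up-regulated and 951 down-regulated to 498 and 2331. The direction of the split therefore depends on the scaling and is not read as a trait of these neighbours. The surroundings of *lgc-45* held calls in both directions: *ncs-6* rose (19, 17 and 29 counts against 204, 216 and 191), while W10G11.19 fell (948, 991 and 1038 against 51, 41 and 40). The 4 genes inside the *lgc-45* span, on the other strand, had at most 3 counts in any library, and *fip-1*, within *twk-7*, had none. Within 50 kb, 13 selected genes (65%) had an up-regulated gene, against 55.5% of tested protein-coding genes, and 11 (55%) had a down-regulated one, against 63.4%. Y54G2A.13 and Y54G2A.37 each had 3 up-regulated genes in this window, including each other, and 0 down-regulated. In both windows Y54G2A.11 had larger counts than either, with 26, 26 and 34 in N2 but 7608, 8769 and 7742 in *lotr-1(sam117)* libraries (log2 fold change 8.90, SE 0.160).

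Cys-loop channel subunits, the superfamily of *unc-63*, *acr-11* and *lgc-45*, were examined after these members had been seen. Of 98 such genes listed, 35 were tested, 12 were up-regulated and 1 was down-regulated, with a median log2 fold change of 0.80 beside 0.04 over all loci. These values include the 3 selected genes. Without the 3 selected genes, 9 of 32 were up-regulated (28.1%), beside 7.25% of all tested protein-coding genes and, for down-regulation, 8.14% of all tested loci. With total-count scaling 9 of the 35, the 3 selected genes included, were up-regulated and 3 down-regulated, where *acr-5*, *lgc-37* and *lgc-53* were not called. Over all loci this scaling gave 498 up-regulated and 2331 down-regulated, against 952 and 951.

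Most of the up-regulated subunit genes had 22G-RNAs in wild-type too. *unc-49*, which encodes subunits of the GABA receptor of body wall muscle, rose from 1228, 1200 and 1303 counts to 6977, 7870 and 6837 (log2 fold change 3.30, SE 0.0522). *acr-17* rose from 62, 58 and 58 to 915, 1053 and 918. *avr-14*, a subunit of a glutamate-gated chloride channel, rose from 24, 24 and 17 to 287, 363 and 331. *lgc-30* fell, from 182, 188 and 193 counts to 6, 7 and 8 (log2 fold change -3.98). In *acr-5* the counts of the genotypes met at 11. It was no longer called with TMM factors, without a filter on low counts or with a replicate block, nor when any of wild-type replicates 1 and 3 and mutant replicates 2 and 3 was left out (log2 fold change 2.03 to 2.39 with a library left out, against 2.43 with all libraries). *lgc-53*, with 0, 8 and 12 counts against 16, 26 and 27, kept its call with a library left out only when this was wild-type replicate 3, and lost it with a minimum of 10 counts in 3 libraries.

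**Figure D4:**
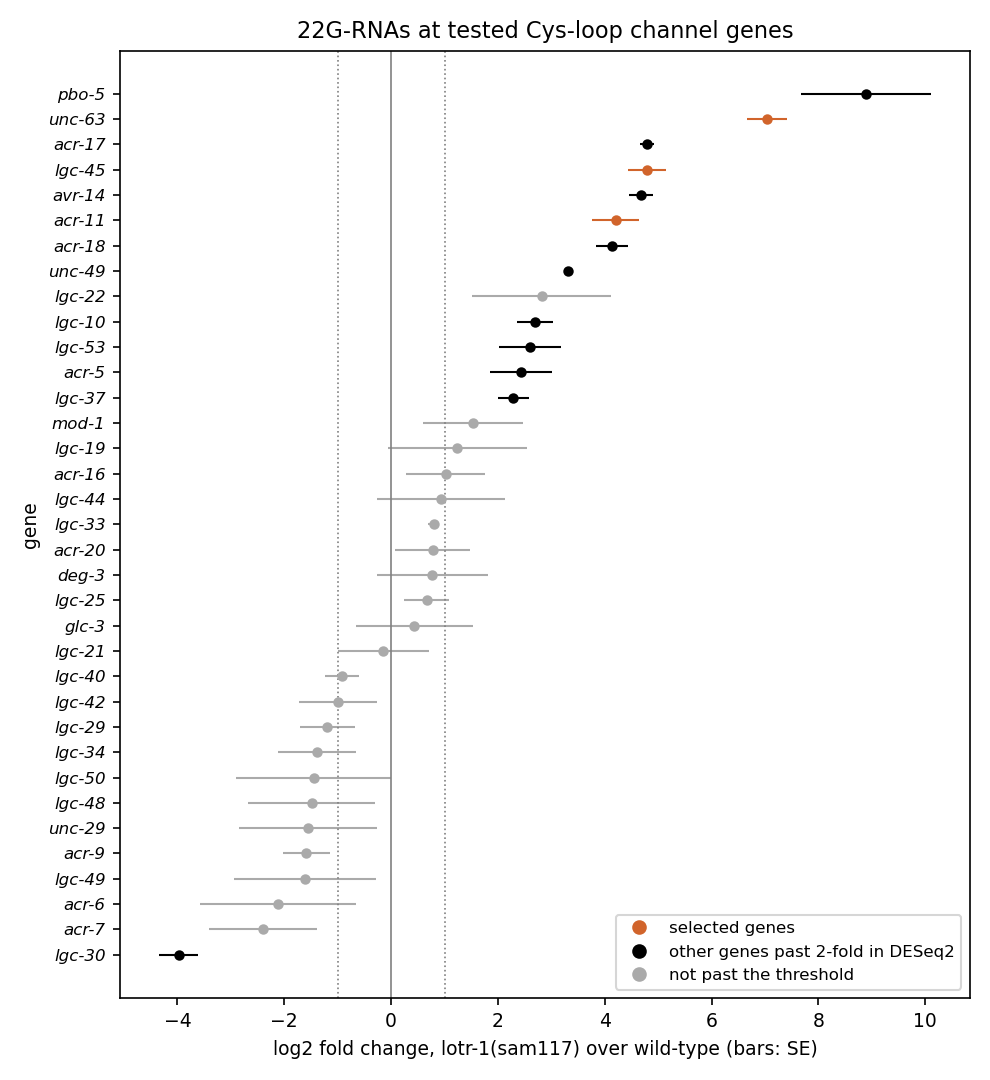
Log2 fold change of 22G-RNA counts, *lotr-1(sam117)* over wild-type, with bars of 1 SE, for the 35 tested Cys-loop channel subunit genes, where dotted lines mark a 2-fold change. Selected genes are orange, other called genes black and genes without a call grey, and *lgc-30* is the called gene on the left at -3.98. *pbo-5* had no wild-type counts, so its fitted value does not measure the size of the difference.

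In the families of the other members, the calls are read against 7.25% of tested protein-coding genes called up-regulated and 8.14% of tested loci called down-regulated. Of 12 tested *twk* genes, 1 was up-regulated, *twk-7* itself. Of 20 tested *srh* genes out of 220 listed, *srh-1* and *srh-71* were up-regulated and *srh-213* down-regulated, and without *srh-71* the up-regulated share was 5.26%. Of 41 tested *col* genes, 4 were up-regulated and 5 down-regulated, and without *col-68* the up-regulated share was 7.50%. These shares are near the background and are not a result about the families. *cah-1* was the only 1 of 6 *cah* genes with enough counts for a test.

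None of the selected genes belongs to the listed small RNA pathway genes, of which 45 of 46 were found and tested. In this list 1 gene was up-regulated and 3 were down-regulated, beside 8.15% and 8.14% of all loci. *rrf-2*, an RNA-dependent RNA polymerase gene, rose (1033, 1078 and 1179 counts against 2744, 3160 and 2703). *rde-8*, which encodes an endonuclease of the RNAi pathway, fell (131, 144 and 141 against 19, 17 and 14), as did *nrde-1*, a nuclear RNAi factor gene (384, 378 and 447 against 52, 64 and 61), and the deleted *lotr-1*.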

How the data were processed

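Small RNAs of wild-type and *lotr-1(sam117)* gravid adults were measured in 3 libraries each, grouped by their labels. The deposited values were raw counts per locus, with no normalization. The authors trimmed reads with cutadapt 2.4, aligned them to WBcel235 with Bowtie 1.2.2 (1 mismatch, 1 random position for reads with several best ones) and assigned 22G-RNAs with featureCounts 1.6.2 on Ensembl release 96. Random placement can exchange counts between near-identical loci. Whether random adapter bases were used to remove PCR duplicates is not given in the sources used here.

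Of 22336 loci, 22014 genes matched the Ensembl annotation used here, 171 did not and 151 were transposon families. All loci were tested with DESeq2 1.42.0 in R 4.3.3 against a 2-fold change, with median-of-ratios size factors and Benjamini-Hochberg adjusted p below 0.1, and fold changes were not shrunken. edgeR 4.0.16, total-count and TMM scaling, other filters, a replicate block, left-out libraries and other limits were run as alternatives. On simulated counts with 200 of 22336 loci changed 8-fold, at a mean of at least 50 counts, DESeq2 recovered 199 and edgeR 200, with 0 false calls. All other loci were simulated without change and tested against a 2-fold change, so few false calls were built in. The difference in size factors between genotypes and changed genes with few wild-type counts were not simulated, so this checks the procedure only. Replicates differed by more than sampling noise (chi-square per degree of freedom 1.40 to 1.87). Tables were made in Python 3.11.15 with pandas 2.3.3.

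The members and gene lists were chosen with earlier results of these data known. All members were named except *fezf-1*, together with nearest neighbours that were members or called and the 3 genes nearest outside each limit. Other neighbours, pseudogenes, Cys-loop and pathway genes were picked after their values were seen. Only 22G-RNA counts were analysed.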

Additional observations from a re-analysis of the deposited data

How the results depend on the processing

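All 20 genes were called up-regulated under every alternative run, with log2 fold changes of 4.00 to 10.21 when a library was left out. This follows from the selection, which used the same libraries, and does not measure how firm the calls are. Over all loci, 952 were up-regulated and 951 down-regulated. Testing against no change, with estimates still required to pass 2-fold, gave 1935 and 1937, and total-count scaling 498 and 2331. Leaving out a library gave 829 to 852 up-regulated and 811 to 860 down-regulated loci. A replicate block gave 834 and 822, but same-numbered libraries did not deviate together (correlations -0.009 to 0.023), so pairing was not shown. Of the nearest neighbours 1 was down-regulated, against 5 with edgeR and 6 when tested against no change with estimates past 2-fold. The number was 7 with total-count scaling and 2 among nearest genes on the same strand. Leaving out a library gave 3 up-regulated and 1 down-regulated each time.

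The number of selected genes moves with the limits and the scaling. It was 40, including all 20, with counts divided by size factors, but 16, all among the 20, with counts scaled to equal totals. It was 8 with a wild-type limit of 5, 50 with a wild-type limit of 20, 31 with a mutant limit of 30 and 10 with a mutant limit of 100. It was 20 to 25 when a library was left out. The difference in their share of all counts was 0.124 percentage points, and 0.0763 without *fezf-1*. At 10 counts or fewer, wild-type values have large counting errors, so the order of fold changes among neighbouring genes is uncertain. The cause of these shifts was not tested.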
